A study of Mus musculus with 4 samples.

Results

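The genes described here are 10 of the IL-33 and IL-1 receptor axis, of 21090 genes in the table: the receptor chains Il1rl1, Il1r1 and Il1rap, the cytokines Il33, Il1a, Il1b and Il18, the antagonist Il1rn, and the adaptor and kinase Myd88 and Irak1. They were chosen because Il1rl1, the IL-33 receptor, was nearly absent from both S100a4 knockouts, so the differences of the members between knockouts and controls are given as a description with no test. Expression was measured by RNA-seq in 4 mammary tumor cell lines of the mouse, 1 library for each, in RPKM (reads divided by gene length in kilobases and by the library's total). By the study's account, the lines descend from a tumor of a mouse of its double mutant model. That model, made on the C57BL/6 background, carries MMTV-Cre with the alleles Pik3ca H1047R and Trp53 R270H. Cre from the mouse mammary tumor virus promoter switches on both mutant alleles. The study describes a metastatic tumor-derived starting line. The controls were the parental cells and cells labelled vector control (n = 2). The knockouts were a line edited in exon 3 and a line edited in exon 2 of S100a4 (n = 2), here the exon 3 line and the exon 2 line, made with a lentivirus carrying Cas9, a guide and puromycin resistance. What the control vector carried is not stated in the labels. By their titles 3 libraries are of cell 307, but the exon 2 line is of cell 308, so there cell name and guide cannot be told apart. Whether 308 is a different starting line is not stated. Within a group the 2 libraries are of different lines, so spread between them mixes differences between lines with technical variation. No label says that libraries came from separate cultures. The p-values measure only that spread, not the variation between repeated cultures of a line.

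IL-33 is a cytokine of the nucleus of stromal and barrier cells that acts as an alarm when it leaves damaged cells. It binds the receptor ST2, the product of Il1rl1, which then pairs with the accessory chain encoded by Il1rap. The same accessory chain completes the IL-1 receptor encoded by Il1r1, and both receptors signal through Myd88 and Irak kinases to NF-kB and MAP kinases. ST2 exists as a membrane receptor and as a shorter secreted form that captures IL-33. Il1rn encodes the natural antagonist of the IL-1 receptor.

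Il1rl1 spans 40429570 to 40465415 of chromosome 1 (GRCm38, plus strand). In GENCODE M21 its long transcripts code for 1704 bases and its short ones for 1014. RefSeq (GRCm38.p6) gives it 2 starts, 10059 bases apart, a distal and a proximal promoter. The windows of 250 bases before each start are shown because Il1rl1 is the member on which the choice rests. Capitals mark matches to AGATAA or TGATAA on either strand, a motif of GATA factors.

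Il1rl1 distal, chr1:40429320-40429569, plus strand: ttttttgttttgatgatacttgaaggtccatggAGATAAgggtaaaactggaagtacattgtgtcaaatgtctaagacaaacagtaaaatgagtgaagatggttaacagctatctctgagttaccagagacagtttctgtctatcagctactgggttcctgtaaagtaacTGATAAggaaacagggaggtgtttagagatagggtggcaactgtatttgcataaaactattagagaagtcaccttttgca

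Il1rl1 proximal, chr1:40439379-40439628, plus strand: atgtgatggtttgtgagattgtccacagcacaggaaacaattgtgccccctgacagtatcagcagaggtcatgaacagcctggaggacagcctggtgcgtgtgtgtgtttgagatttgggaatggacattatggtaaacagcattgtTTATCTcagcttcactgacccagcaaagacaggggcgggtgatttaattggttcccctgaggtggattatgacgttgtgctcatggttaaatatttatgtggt

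The distal window held 2 matches, beginning 217 and 80 bases before the start, and the proximal window held 1, beginning 103 bases before it. Of 32817 windows of this length in RefSeq, 16.6% held at least 1 match. RefSeq had windows for 10 of the 10 members (16 windows in all), and in the other members' windows no GATA match was found. The searched AP-1 letters, TGANTCA, stood before Il1rn (141 bases from the start) and Il1a (12 bases), against 6.75% of all windows. An NF-kB motif stood before a downstream start of Il1r1, at 232 bases, against 3.9% of all windows. The letters TATAAA stood close to the start in Il1b (31 bases), Il1a (32 bases) and a downstream start of Il33 (29 bases), and further out before Il18, Myd88 and the upstream start of Il33, against 12.4% of all windows. All motifs were searched on both strands, and a match describes the letters only.

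The edited gene and the cells were examined first. S100a4, a small calcium-binding protein, had 3576 RPKM in parental cells and 4741 in vector control cells, against 1136 in the exon 3 line and 1105 in the exon 2 line. Its transcript was thus present in all 4 libraries, and RPKM does not show whether it carries an edit. The study reported truncating mutations in most S100a4 transcripts of its knockout lines, and loss of the protein by Western blot. Reads in genes ranged from 14522227 to 20277904 per library. Mesenchymal markers were abundant, with 8 of 9 at a mean RPKM of at least 1. Their summed RPKM was 4002 in parental and 2431 in vector control cells, against 1960 in the exon 3 line and 2234 in the exon 2 line. Vim was the largest part of that sum in every library. Vim, Col3a1, Pdgfra, Twist1 and Zeb1 were lower in both knockouts than in both controls. Fn1, Col1a1 and Pdgfrb lay between the controls in both knockouts, above vector control cells and below parental cells. For Col1a1 the controls were far apart, at 670 RPKM in parental and 6.93 in vector control cells. Any part of these differences in the members' values was not tested. Krt8 and Krt18 were present, and Epcam and Cdh1 were below 1 RPKM in every library. The luminal sum was 133 RPKM in parental cells, 37.5 in vector control cells, 109 in the exon 3 line and 76.2 in the exon 2 line.

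Among blood cells, ST2 is best known from mast cells and some lymphocytes. Of 8 mast cell markers, 5 were listed at 0 in all 4 libraries, Kit, Ms4a2, Fcer1a, Cpa3 and Tpsb2. The summed mast cell RPKM was 0.448 in parental cells, 1.41 in vector control cells, 1.58 in the exon 3 line and 0.7 in the exon 2 line. Hdc made up all of it in the last 3 libraries and 0.32 RPKM of it in parental cells, where Mcpt4 and Cma1 gave the rest. Of 6 lymphoid markers, 4 were at 0 throughout, and the summed RPKM lay between 0 and 0.353. Ptprc, which marks all white blood cells and came from the list of macrophage and other myeloid markers, reached 0.0101 RPKM at most. Of the 7 in that list, 2 had mean RPKM of at least 1. Cd68 had 4.92 RPKM in parental cells, 3.36 in vector control cells, 11.5 in the exon 3 line and 13.2 in the exon 2 line. Cd14 had 9.42, 34.5, 8.74 and 7.15 RPKM in the same order. None of these lists had a higher summed RPKM in both controls than in both knockouts.

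Il1rl1 was present in both controls and nearly absent from both knockouts. It had 12.8 RPKM in parental cells (693 reads, 95% Wilson interval 11.9 to 13.8) and 14.9 in vector control cells (657 reads, 13.8 to 16.1). It had 0.934 RPKM in the exon 3 line (38 reads, 0.681 to 1.28) and 0.154 in the exon 2 line (6 reads, 0.0706 to 0.336). The knockout intervals lay far below those of the controls. Within each group the intervals did not overlap either, though those of the controls nearly touched. These intervals cover counting error only.

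The mean of Il1rl1 was 13.9 ± 1.5 RPKM (SD, n = 2) over the controls against 0.544 ± 0.552 (SD, n = 2) over the knockouts, 25.5-fold apart. The exon 3 line kept 6.74% and the exon 2 line 1.11% of the control mean. By RPKM the gene ranked 6193 in parental and 5904 in vector control cells, then 10642 in the exon 3 line and 12030 in the exon 2 line. In a bulk library, fewer cells carrying a transcript and less of it per cell cannot be told apart. The deposited values are per gene and do not separate the membrane from the secreted form.

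The other chain of the IL-1 receptor family that binds its own cytokine, Il1r1 (chromosome 1, 40225080 to 40317257, plus strand), is the signalling receptor for IL-1α and IL-1β. It had 6.34 RPKM in parental cells (343 reads), 4.19 in vector control cells (184 reads), 1.9 in the exon 3 line (77 reads) and 1.62 in the exon 2 line (63 reads). Both knockouts lay below both controls, at 1.76 ± 0.195 RPKM (SD, n = 2) against 5.26 ± 1.53 (SD, n = 2), or 33.4% of the control mean. The 2 knockouts were close to each other here, with overlapping intervals of 1.52 to 2.37 and 1.27 to 2.07.

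Il1rap (chromosome 16, 26581704 to 26730117, plus strand), the accessory chain that both receptors share, was also lower in both knockouts, with more spread between the lines. It had 13.5 RPKM in parental cells (1034 reads), 8.8 in vector control cells (550 reads), 2.39 in the exon 3 line (138 reads) and 5.01 in the exon 2 line (277 reads). The knockout mean of 3.7 ± 1.85 RPKM (SD, n = 2) was 33.2% of the control mean of 11.1 ± 3.29 (SD, n = 2). For Il1rap the exon 3 line was the lower of the knockouts, and for Il1rl1 the exon 2 line was. An antisense gene, Gm20319, overlaps coding exons of Il1rap, and whether counting used strand is not given in the sources used here.

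The balance of the 3 chains, as ratios of RPKM within a library, differed between lines. Il1rl1 stood at 0.951 of the Il1rap level in parental cells and 1.7 in vector control cells, against 0.391 in the exon 3 line and 0.0307 in the exon 2 line. In the exon 2 line Il1rap thus exceeded Il1rl1 by 32.5 times. Il1r1 stood at 0.471 and 0.475 of Il1rap in parental and vector control cells, 0.793 in the exon 3 line and 0.323 in the exon 2 line. The Il1rl1 to Il1rap ratio was lower in both knockouts than in both controls, while for Il1r1 the knockouts lay on either side of the controls.

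Il33 (chromosome 19, 29925114 to 29960718, plus strand), the ligand of ST2, was low in all lines and lower in both knockouts. It had 3.28 RPKM in parental cells (82 reads), 2.95 in vector control cells (60 reads), 0.957 in the exon 3 line (18 reads) and 1.67 in the exon 2 line (30 reads). The knockout mean of 1.31 ± 0.502 RPKM (SD, n = 2) was 42.1% of the control mean of 3.11 ± 0.232 (SD, n = 2). The interval of the exon 2 line, 1.17 to 2.38, overlapped that of vector control cells, 2.29 to 3.8.

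The IL-1 cytokines and their antagonist were close to absent in every line. Il1a, whose product is held in the cells that make it, had 0.255 RPKM in parental cells (7 reads), 0.269 in vector control cells (6 reads), 0.0969 in the exon 3 line (2 reads) and 0.0506 in the exon 2 line (1 read). Il1b, made mostly by activated myeloid cells, had 3 reads in vector control cells (0.135 RPKM) and 0 in the other libraries. A count of 0 allows up to 3 reads, which is 0.11 RPKM in parental cells, 0.146 in the exon 3 line and 0.153 in the exon 2 line, so no difference in Il1b was detectable at this depth. Il1rn had 6 reads in parental cells (0.339 RPKM), 1 in the exon 3 line (0.0753 RPKM) and 0 in vector control cells and the exon 2 line, which allows up to 0.209 and 0.236 RPKM there. Genes on the opposite strand overlap coding exons of Il1a and Il1b.

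Il18 (chromosome 9, 50554827 to 50581840, plus strand) encodes a cytokine of the same family that is cut to its active form by caspase-1. It had 5.39 RPKM in parental cells (154 reads), 3.7 in vector control cells (86 reads), 2.19 in the exon 3 line (47 reads) and 3.75 in the exon 2 line (77 reads). The exon 2 line and vector control cells had like values, so the groups overlapped. The mean was 4.55 ± 1.19 RPKM (SD, n = 2) over the controls against 2.97 ± 1.1 (SD, n = 2) over the knockouts. On the log2(RPKM + 1) scale, knockouts minus controls was -0.49. Vector control minus parental cells was -0.44, and exon 2 minus exon 3 line was 0.57.

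Downstream of the receptors, the adaptor and the kinase were the most abundant members, and their groups overlapped. Myd88 (chromosome 9, 119335934 to 119341411, minus strand), the adaptor shared by IL-1 and Toll-like receptors, had 35.3 RPKM in parental cells, 52.8 in vector control cells, 39.3 in the exon 3 line and 31.5 in the exon 2 line. Its difference, knockouts minus controls on the log2(RPKM + 1) scale, was -0.29, and ranged from -0.57 without parental cells to -0.0034 without vector control cells. The annotated spans of Slc22a14 (same strand) and Acaa1a (opposite strand) overlap its coding exons.

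Irak1 (chromosome X, 74013914 to 74023918, minus strand), a kinase recruited by Myd88, had 29.3 RPKM in parental cells, 23.4 in vector control cells, 21.6 in the exon 3 line and 30.3 in the exon 2 line. The exon 3 line lay below both controls and the exon 2 line above both, a split seen in 7.88% of all tested genes. The log2 difference of -0.03 had no stable sign, being 0.08 after median ratio scaling, 0.03 after quantile normalization, 0.20 without the exon 3 line and 0.12 without parental cells.

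**Figure D1:**
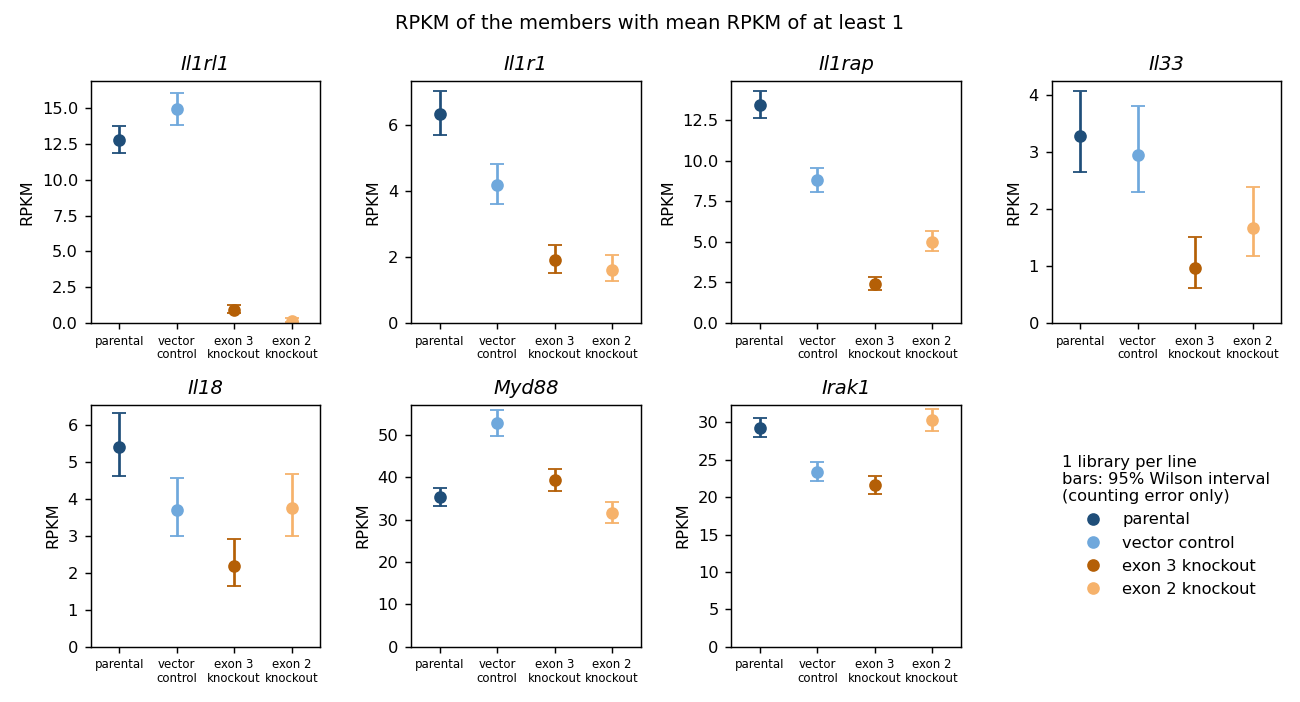
RPKM (vertical axis, from 0) of the 7 members with mean RPKM of at least 1 in the 4 libraries, with 95% Wilson intervals that cover counting error only. Il1rl1, Il1r1, Il1rap and Il33 lie lower in both knockouts than in both controls, while Il18, Myd88 and Irak1 overlap.

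The order of the members by RPKM within a library changed mainly through Il1rl1. In parental cells Myd88 was followed by Irak1, Il1rap and Il1rl1, whose intervals overlapped at 12.7 to 14.3 and 11.9 to 13.8, and then by Il1r1 and Il18, which overlapped as well, and Il33. In vector control cells Il1rl1 was the third of the 10 members. In both knockouts it was the seventh, below Il33, although in the exon 3 line its interval of 0.681 to 1.28 RPKM overlapped the 0.606 to 1.51 of Il33. Myd88 and Irak1 held the first and second places in all 4 libraries, with overlapping intervals in the exon 2 line.

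Of the 10 members, 7 had mean RPKM of at least 1 and entered the fit over 10871 genes, and Il1a, Il1b and Il1rn did not. Of those 7, 4 had both knockouts below both controls (Il1rl1, Il1rap, Il1r1 and Il33), which also held for 31.2% of all tested genes. None of the 7 had both knockouts above both controls, against 21.9% of all tested genes. The median difference of the 7 was -0.85 on the log2(RPKM + 1) scale, and -0.08 over all tested genes. Median ratio scaling moved the latter to 0.02 and quantile normalization to 0.04, so the members' differences read against a centre that itself shifts by over 0.1 with the scaling. Since the members were chosen on this contrast, nothing is read from these counts.

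Only Il1rl1 among the 7 was at least 2-fold lower (a difference of 1 on the log2(RPKM + 1) scale) in all 4 pairs of a knockout and a control, as were 1.73% of all tested genes, and none was 2-fold higher in all pairs, against 0.267%. The pairs for Il1rl1 were -2.84 and -3.04 for the exon 3 line, set against parental and then vector control cells, and likewise -3.58 and -3.79 for the exon 2 line. Just outside that limit, Il1rap passed it in 3 pairs and stood at -0.71 between the exon 2 line and vector control cells. Il1r1 passed it against parental cells, at -1.34 and -1.49, and stood at -0.84 and -0.99 against vector control cells. Il33 passed it in the exon 3 line, at -1.13 and -1.01, and stood at -0.68 and -0.57 in the exon 2 line.

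Pairs of libraries within a group were compared in the same way. None of the 7 was 2-fold apart between vector control and parental line, against 8.53% of all tested genes, or between the 2 knockouts, against 4.99%. Il1rl1 differed by 0.21 on the log2(RPKM + 1) scale between the controls and by -0.74 between exon 2 and exon 3 lines. Il1rap differed by -0.56 between the controls and by 0.83 between the knockouts, the widest gap between knockouts of the 7.

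**Figure D2:**
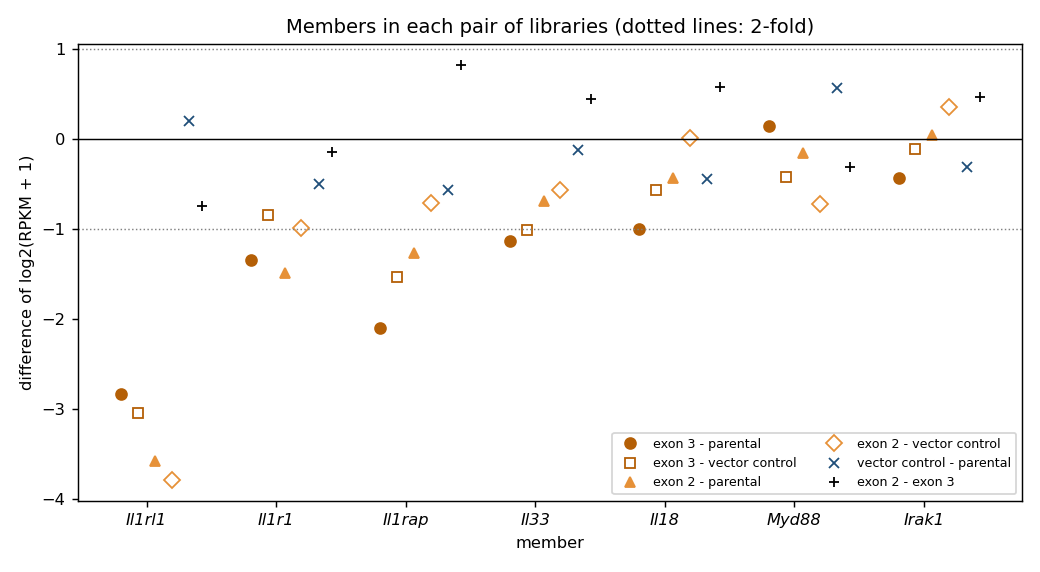
Difference of log2(RPKM + 1) for the 7 members with mean RPKM of at least 1 (horizontal axis) in the 4 knockout and control pairs (orange), between the controls (blue crosses) and between the knockouts (black plus signs). All 4 orange points of Il1rl1 lie below -2.8, while those of Il18, Myd88 and Irak1 lie on both sides of 0.

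Base composition moved with the differences over all genes and is therefore given beside the members. Tested genes in the lowest octile of coding GC content had a median log2 difference of -0.68, those in the second -0.46 and those in the sixth and seventh 0.16 and 0.24. Il1r1 (43.3% GC) and Il18 (40.1%) fall in the first octile, Il1rl1 (45.4%) and Il33 (46.1%) in the second, and Il1rap (48.5%) in the third, whose median was -0.23. Myd88 (55.8%) and Irak1 (57.3%) fall in the sixth and seventh.

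After a smooth trend on GC content and coding length was removed from each library, the log2 difference of Il1rl1 was -2.75, against -3.31 before. That of Il1rap was -0.99, against -1.4. That of Il1r1 was -0.52, against -1.16, and that of Il33 was -0.46, against -0.85. The difference of Il18 went from -0.49 to 0.04, so its sign rested on this choice. The part of base composition in the lower receptor values was not tested beyond this correction.

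**Figure D3:**
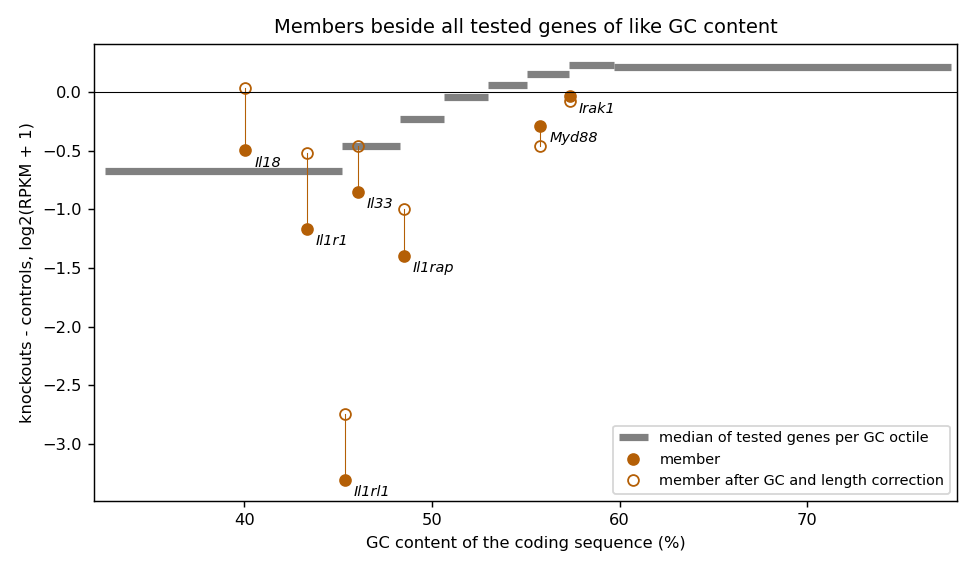
Difference between knockouts and controls on the log2(RPKM + 1) scale against coding GC content (%) for the 7 members, before (filled) and after (open) correction for GC content and length, with the median of all tested genes per GC octile (grey bars). Il1rl1 lies at -2.75 or lower in both cases, far from the grey bar of its octile at -0.46, and Il18 moves to 0.04.

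Il1rl1 and Il1r1 sit in a cluster of receptor genes on chromosome 1, and the cluster was examined by distance from the start of Il1rl1. Of 10 protein-coding genes starting within 500 kb, 4 had mean RPKM of at least 1: Il1r1, Il1rl1, Il18rap and Mfsd9. Il18rap, the accessory chain of the IL-18 receptor, starts 85.8 kb downstream and had 7.5 RPKM in parental cells, 5.56 in vector control cells, 2.05 in the exon 3 line and 0.967 in the exon 2 line. Both knockouts lay below both controls, as for the 2 members of the cluster. The difference was -1.61 (SE 0.382) and did not pass the test, with an adjusted p of 0.105 in limma.

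Mfsd9, a transporter-like gene 361 kb downstream, had 2.65 RPKM in parental cells, 4.33 in vector control cells, 2.8 in the exon 3 line and 3.02 in the exon 2 line, and its groups overlapped. Il18r1, the chain that binds IL-18, starts 36 kb downstream and had 4 reads in parental cells, 30 in the exon 3 line (0.784 RPKM) and 0 in the other 2 libraries. Il1rl2, the IL-36 receptor, starts 105 kb upstream and had 1.13 RPKM in parental cells and at most 0.198 in the others. Il1r2, a decoy receptor for IL-1, had between 0.138 and 0.305 RPKM, and the transporters Slc9a4 and Slc9a2 at most 0.146. Tmem182 was listed at 0 in all 4 libraries. The chromosome 1 values were thus low outside 4 genes.

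On chromosome 2, 11 protein-coding genes start within 500 kb of Il1rn, among them the genes of the IL-36 cytokines. None had mean RPKM of at least 1, and 7 were listed at 0 in all 4 libraries (Hnmt, Tbpl2, Il1f5, Il1f6, Il1f8, Il1f9 and Il1f10). Psd4, Pax8 and Cacna1b had at most 0.236 RPKM.

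**Figure D4:**
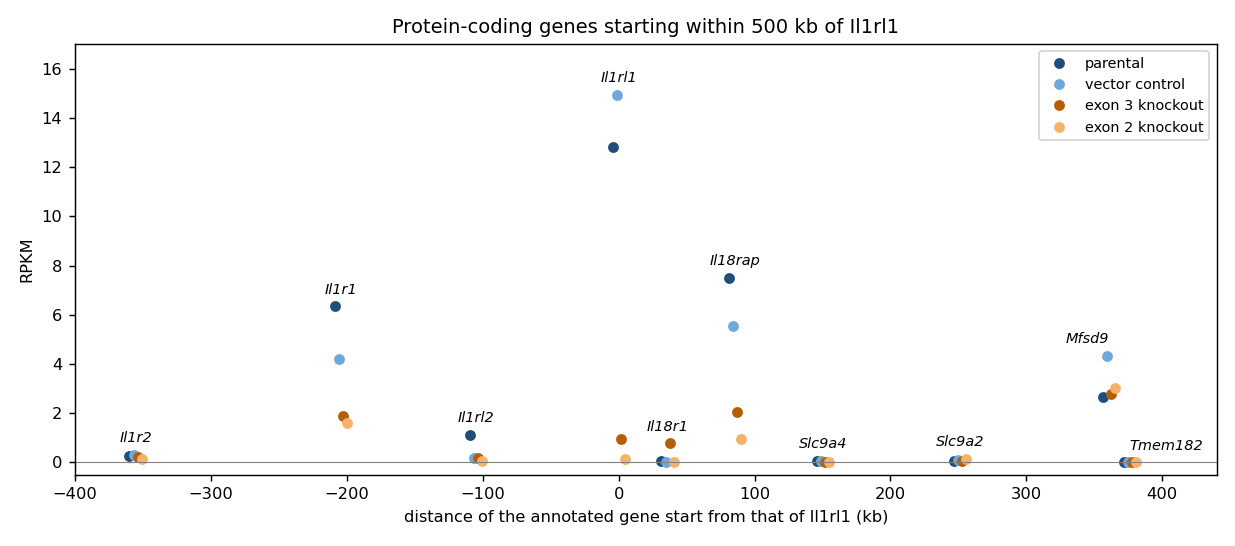
RPKM of the 10 protein-coding genes starting within 500 kb of Il1rl1 (vertical axis) against the distance of their start from that of Il1rl1 in kb, with the 4 libraries side by side. Il1r1, Il1rl1 and Il18rap are lower in both knockouts (orange) than in both controls (blue), and Mfsd9 is not.

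The genes whose profile over the 4 libraries was nearest to that of Il1rl1, by Euclidean distance between centred log2(RPKM + 1) values, were Aspn (0.666), Cdh13 (1.18), Gm13889 (1.21), Nrep (1.23) and Ankrd44 (1.27). Aspn, a small proteoglycan of the matrix, had 7.99 RPKM in parental cells, 9.41 in vector control cells, 1.18 in the exon 3 line and 0.0397 in the exon 2 line. Cdh13, a cadherin anchored in the membrane by a lipid, had 3.63 RPKM in parental cells, 7.76 in vector control cells, 0.218 in the exon 2 line and was listed at 0 in the exon 3 line. In that order of 10871 genes Il1r1 was at place 341, Il1rap at 396, Il33 at 1261, Il18 at 3269, Myd88 at 3575 and Irak1 at 6076. With 4 libraries, such a distance is a description of these lines only.

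The other genes of the pathway were taken from 6 lists of 82 genes, all in the table, of which 56 had mean RPKM of at least 1. None of the 56 passed limma at an adjusted p of 0.05, and 17 had an unadjusted p under 0.05, all of them lower in the knockouts. Over all tested genes 13.8% had an unadjusted p under 0.05 and were lower and 5.32% were higher. By the adjusted p, 0.0184% passed as lower and 0% as higher. The 2 that passed were Bgn, a matrix proteoglycan named after its values were seen, and Il1rl1 itself. Il1rl1 was chosen on this contrast, so nothing is read from its passing. Of the 56, 28 had both knockouts below both controls and 6 above both, against 31.2% and 21.9% of all tested genes. The median log2 difference of the 56 was -0.44. The count that passed depended on the controls, being 4 without vector control cells (Ccl2, Il18rap, Mmp9 and Vcam1) and 11 without parental cells, all lower, with the lone control assumed to vary like the knockouts.

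Among inducible targets of the pathway, 12 of 22 had mean RPKM of at least 1, none passed limma, and the median log2 difference was -1.22. Without Ccl2, Ccl7, Mmp3 and Mmp9, which the study names, 9 remained, with a median of -1.09. Vcam1, an adhesion molecule for white blood cells, had 114 RPKM in parental cells, 81.9 in vector control cells, 28 in the exon 3 line and 30.6 in the exon 2 line. Its difference was -1.69 (SE 0.308, adjusted p 0.0909 in limma). Ccl2, a monocyte-attracting chemokine, had 104 RPKM in parental cells, 225 in vector control cells, 50.8 in the exon 3 line and 35.2 in the exon 2 line, with a difference of -1.83 (SE 0.386, adjusted p 0.0979 in limma). Mmp9, a matrix protease, had 3.42 RPKM in parental cells, 3.03 in vector control cells, 0.971 in the exon 3 line and 0.122 in the exon 2 line, with a difference of -1.51 (SE 0.412, adjusted p 0.13 in limma). These 3 and Il18rap were the 4 of 56 pathway genes at least 2-fold lower in all 4 pairs, against 1.73% of all tested genes. Of the 12, 8 had both knockouts below both controls and 1 had both above, against 31.2% and 21.9% of all tested genes. Csf1, a growth factor for macrophages, differed by 0.17 with overlapping groups (-0.04 after quantile normalization).

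Of the other receptors and decoys, 3 of 8 had mean RPKM of at least 1, with a median log2 difference of -0.53. Beside Il18rap these were Sigirr, a receptor that dampens IL-1 and IL-33 signalling (-0.53), and Il18bp, a soluble trap for IL-18 (-0.02, but 0.07 after median ratio scaling). All 5 other ligands, found in the table by name or synonym, were listed at 0 in every library.

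Receptor-proximal signalling genes (11 of 14 with mean RPKM of at least 1) had a median of -0.27. Its most abundant genes were Tab2 (-0.56) and Tab1 (0.43), partners of the kinase TAK1, and Tollip (-0.05, but 0.06 after median ratio scaling), a regulator of Irak1. The NF-kB and MAP kinase genes (21 of 21) had a median of -0.33, with Nfkbia, the inhibitor of NF-kB, at -0.70, the kinase Map2k3 at -0.02 (0.09 after median ratio scaling) and the p38 kinase Mapk14 at 0.28. Cytokine-processing genes (9 of 12) had a median of -0.26, with Ninj1, a protein of membrane rupture, at 0.25 (-0.07 after the GC and length correction, -0.15 without parental cells), Gsdmd, the pore former of pyroptosis, at 0.18 and the protease Capn2 at -0.26. Without the exon 3 line Gsdmd was at -0.24 and Capn2 at 0.06. None of these 9 genes passed limma, with adjusted p-values from 0.268 to 0.982.

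**Figure D5:**
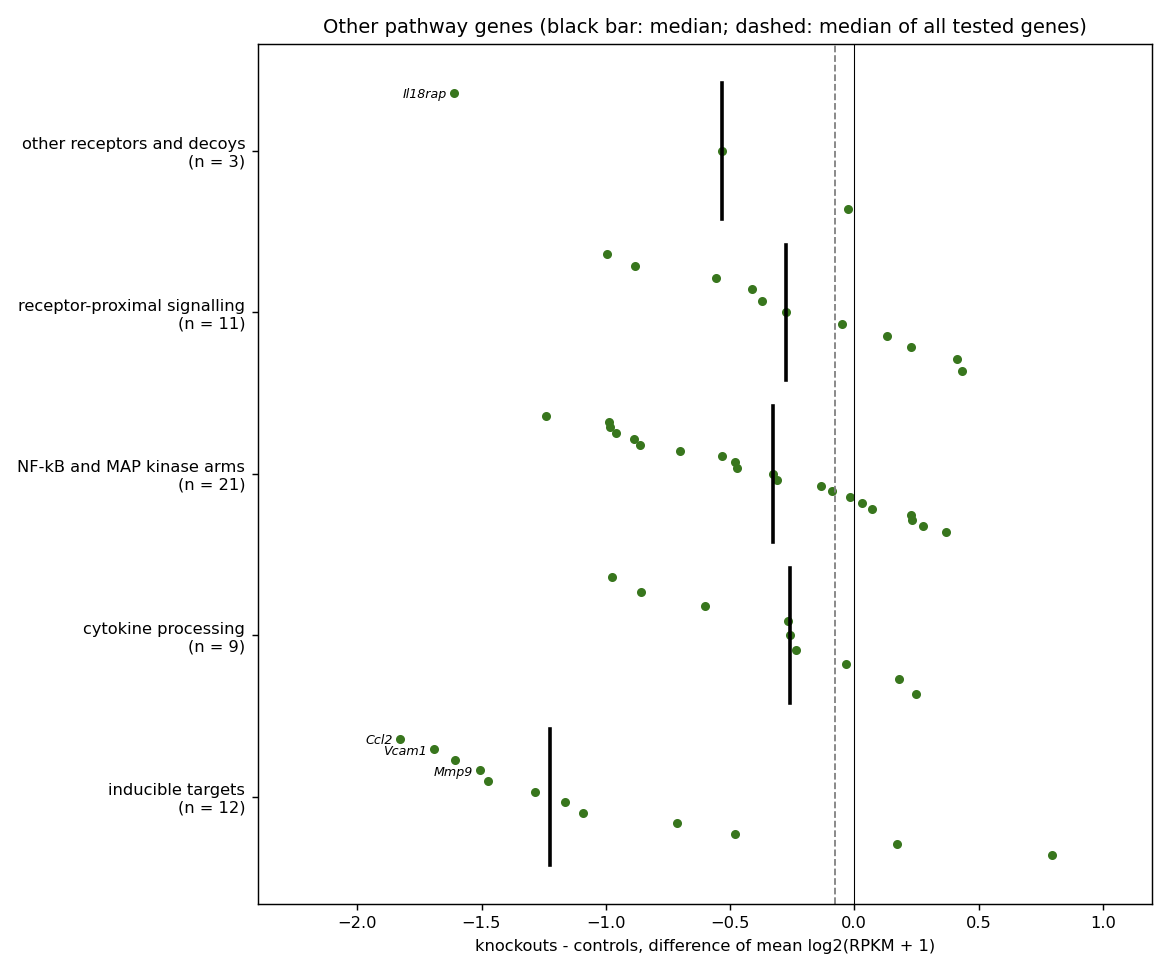
Difference between knockouts and controls on the log2(RPKM + 1) scale for the 56 other pathway genes with mean RPKM of at least 1, by list, with the median of each list (black bars) and of all tested genes (dashed line at -0.08). The inducible targets have a median of -1.22, and the 4 genes at least 2-fold lower in all pairs are named.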

How the data were processed

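RNA-seq libraries of 4 mouse mammary tumor cell lines were analysed from the table of RPKM values that the authors deposited, with 1 column per library and 0 columns left unmatched. The submitters' processing notes name CASAVA 1.8, GSNAP and GRCm38. The gene model and counting rule are not given in the sources used here. Whole reads were fitted to the RPKM steps with a tolerance of 0.001 reads for 100% of 14196 genes above 0 in at least 2 libraries. For a gene above 0 in only 2 libraries such a fit always exists, so there the share does not show that true counts were recovered. Reads are on a scale set from annotated coding lengths (GENCODE M21). The length equalled an annotated one for 9187 of 15362 genes with reads. For the others, Il1b among them, it was inferred from the values. Lengths of members can exceed their longest protein-coding transcript, as for Il1a (879 against 813 bases) and Il18 (914 against 579). Read counts and intervals rest on these lengths. The totals behind the RPKM ranged from 22472024 to 31235456. Wilson intervals (95%) and the limit of 3 reads for a count of 0 cover counting error only.

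Groups came from the sample titles. Values were tested as log2(RPKM + 1) with limma 3.58.1 (R 4.3.3) and an intensity trend, 2 knockouts against 2 controls without covariates, over the 10871 genes whose mean RPKM reached 1, with Benjamini-Hochberg adjustment at 0.05. A log2 difference understates the change of low genes. With 2 against 2 libraries an exact permutation test cannot go below a two-sided p of 0.333, so none was run on single values. The fit was tested on simulated data. Tables and intervals were made in Python 3.11.15 (pandas 2.3.3, scipy 1.17.1).

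The members and lists were chosen with earlier results of these data known. Named genes were the members, S100a4, in each pathway list the 3 most abundant tested genes and those past the test or 2-fold apart in all 4 pairs, the 5 nearest profiles to Il1rl1, and the neighbours within 500 kb of Il1rl1 and Il1rn. Alternatives were a pseudocount of 0.1, median ratio scaling, quantile normalization, no filter, a mean RPKM of at least 5, no trend in limma, a robust prior in limma, a correction for GC content and length, and leaving out each library.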

Additional observations from a re-analysis of the deposited data

Results flagged for a closer look

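In 4 of the 23 members and named pathway genes with mean RPKM of at least 1, the exon 3 and exon 2 knockouts lay on opposite sides of both controls, which held for 7.88% of all tested genes. As exon 2 minus exon 3 on the log2(RPKM + 1) scale, the difference was 0.47 for Irak1 and 0.65 for Il18bp, and it was -0.83 for Gsdmd and -0.59 for Tollip. With 1 library per knockout line, these differences between the knockouts were not tested.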

How the results depend on the processing

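Of 270 values for 23 genes under 12 alternatives, 250 moved by less than 1 SD between the libraries of a group and 20 moved further. The sign changed in 22 values of 9 genes. Many of the 250 were fixed in advance. Leaving out a library cannot move a difference by more than this SD, and the filter, trend and prior settings leave it unchanged. The 20 came from the pseudocount, median ratio scaling, quantile normalization and the GC and length correction. The difference of Il1rl1 ranged from -4.76 (pseudocount of 0.1) to -2.75 (GC and length correction), that of Il1rap from -1.81 to -0.99, that of Il1r1 from -1.5 to -0.52 and that of Il33 from -1.23 to -0.46. The count of 2 genes passing limma became 1 with a pseudocount of 0.1, 1 after quantile normalization, 0 after median ratio scaling (2171 at an unadjusted p under 0.05), 0 without the filter (2132), 0 after the GC and length correction (1405), 32 at mean RPKM of at least 5 and 285 with a robust prior. The count of 0 pathway genes became 1 at mean RPKM of at least 5 (Vcam1) and 6 with a robust prior (Ccl2, Ccl7, Il18rap, Mmp9, Ptgs2 and Vcam1), all lower. Leaving out 1 library gave between 0 and 802 genes in all and between 0 and 11 pathway genes, with 449 and 4 without the vector control and 802 and 11 without the parental line. The lone control is then assumed to vary like the knockouts. The pathway median of -0.44 was -0.21 after quantile normalization, -0.23 after the GC and length correction, and between -0.52 and -0.22 (without the vector control) with 1 library left out. The cause of these shifts was not tested. No paired analysis was possible because the labels match no knockout library to a control library. Depth limits Il1a, Il1b and Il1rn, with at most 7 reads in a library.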
